A study of Mus musculus with 8 samples.

Results

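The genes described here encode the proteins of the cytosolic ribosome. They were taken from the table of read counts as every gene symbol that begins with Rpl or Rps, leaving out symbols with -ps, the S6 kinases (Rps6k) and Rps19bp1, which gave 83 of the 13420 genes. Of these, 50 are Rpl genes of the large (60S) subunit and 33 are Rps genes of the small (40S) subunit, Rpsa included. Before counting, the authors removed multi-mapping reads, which bears on this family more than on most, since ribosomal protein genes have many processed copies in the genome.

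WT organoids carried the mTmG reporter (membrane tdTomato) on a C57BL/6 background and were grown from the small intestine, with Rosa26-CreERT2 in the study's account of the line. Cancer organoids expressed Dendra2 and came from mice, strain C57BL/6 (F6), that carry Villin-CreERT2 with alleles that include Tr53 fl/R172H and Apc fl/fl, in which the Villin promoter restricts the recombinase to the intestinal epithelium. Cells were grown pure or aggregated as 2 parts WT to 1 part cancer, and live cells of each colour were sorted on day 3 after mixing, which gave WT and cancer cells, each pure or mixed. Each of these 4 groups has 2 libraries, named here by their well, and no source says whether they came from separate cultures, so the tests measure the spread between libraries, which may be technical.

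Each cytosolic ribosome holds a single copy of most of its proteins, and a cell therefore needs them in nearly equal numbers. Their mRNAs share a terminal oligopyrimidine (TOP) start, a C followed by a run of C and T (in RNA, C and U) at the first base, through which mTORC1 and LARP1 control their translation. The stalk proteins Rplp0, Rplp1 and Rplp2 recruit translation factors, Rps6 is the substrate of the S6 kinases, Rps27a is made as a fusion with ubiquitin, and Rpl5 and Rpl11 can bind the p53 inhibitor MDM2 when they are not part of a ribosome. In the intestine, dividing crypt cells are known for high ribosome production.

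The shallowest library, A02 of mixed WT cells, had 73109 reads on genes, and the deepest, A04 of mixed cancer cells, had 4733121. All 11 epithelial markers looked at were present, with a summed level between 4850 and 16665 CPM (counts per 1000000 reads after TMM scaling). Of 8 fibroblast markers 2 were in the table, at 0 to 7.31 CPM in sum, none of 5 endothelial markers was, and of 8 leukocyte markers 5 were, without Ptprc, Cd3e or Cd79a. Of the engineered genes, Trp53 stood at 178, 324, 13.1 and 174 CPM in the WT libraries A01, A05, A02 and A06 and at 5.25, 71.8, 67.3 and 46.7 CPM in the cancer libraries A03, A07, A04 and A08, where the values in A02 and A03 are 1 read each. It was called as lower in pure cancer against pure WT cells (log2 fold change -2.56, adjusted p = 0.0323, edgeR) but not in mixed cells (-0.93, adjusted p = 0.604). Apc had 31 reads in all. Counts of 3′ tags do not check alleles that are altered elsewhere in the gene.

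The TOP start can be read in the mouse genome. Promoter sequences from RefSeq (GRCm38.p6) were matched by symbol for 62 of the 83 genes, and the others, among them Rpl17, Rpl21, Rpl23a, Rpl29, Rpl3, Rpl30, Rpl32, Rpl36, Rpl7, Rpl8, Rplp1, Rps14, Rps20, Rps27a, Rps29 and Rps4y2, were not in that table. The windows printed here run from 30 bases before the annotated start to 25 bases from it, 5′ to 3′ on the gene's strand, with the longest tract that begins with C near the start in capitals. The first 4 show tracts at the start itself, in 2 abundant genes (Rpl15 and Rps6) and 2 that were hardly counted (Rplp2 and Rps27), and the last 4 are the genes whose levels the comparisons below turn on.
Rpl15 (chr14:18270962-18271016, minus strand): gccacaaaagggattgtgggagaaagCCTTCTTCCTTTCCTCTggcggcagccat
Rps6 (chr4:86857343-86857397, minus strand): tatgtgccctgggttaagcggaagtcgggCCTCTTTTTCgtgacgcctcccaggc
Rplp2 (chr7:141447621-141447675, plus strand): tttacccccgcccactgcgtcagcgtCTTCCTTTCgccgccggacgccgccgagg
Rps27 (chr3:90213624-90213678, minus strand): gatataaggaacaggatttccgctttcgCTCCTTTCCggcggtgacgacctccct
Rps12 (chr10:23787185-23787239, minus strand): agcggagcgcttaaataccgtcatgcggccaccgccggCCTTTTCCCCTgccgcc
Rps27l (chr9:66946056-66946110, plus strand): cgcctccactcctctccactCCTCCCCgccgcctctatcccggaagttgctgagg
Rpl36a (chrX:134585624-134585678, plus strand): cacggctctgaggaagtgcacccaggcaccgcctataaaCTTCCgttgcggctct
Rps7 (chr12:28635929-28635983, minus strand): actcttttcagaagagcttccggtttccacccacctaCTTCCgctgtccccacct

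On the gene's strand, a C followed by at least 4 bases that are C or T began within 10 bases of the start in 37 of the 62 promoters (59.7%), against 34.4% of all 27025 genes in the table. At the annotated start itself it was present in 13 of 62 (21.0%) against 3.01% of all genes. A tract of at least 8 such bases, beginning anywhere within 10 bases of the start, was present in 24 (38.7%) against 9.43%. Of the 69 mitochondrial ribosomal protein genes with a promoter, none had the motif at the start, 44.9% had it within 10 bases and 7.25% had the long tract. In Rps12 the tract of 11 bases begins 8 bases after the annotated start, and in Rpl36a and Rps7 the tract is of 5 bases, also downstream. In Rps27l the tract of 7 bases begins 10 bases before the annotated start and ends before reaching it. These are matches of letters around annotated starts, which were not measured in these organoids.

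A large part of all reads came from these genes. Their share of reads on genes averaged 31.8% ± 2.54 (SD, n = 8). It was 30.8% and 33.3% in the pure WT libraries A01 and A05, 33.1% and 32.9% in the mixed WT libraries A02 and A06, 32.5% and 31.8% in the pure cancer libraries A03 and A07, and 25.9% and 33.8% in the mixed cancer libraries A04 and A08. The lowest and the highest share thus both belonged to mixed cancer cells, and the other 3 groups lay within that range. Library A04, with the lowest share, was also the deepest. A share of reads cannot tell fewer cells of a type from less RNA per cell in bulk samples, and no test was run on it.

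**Figure D1:**
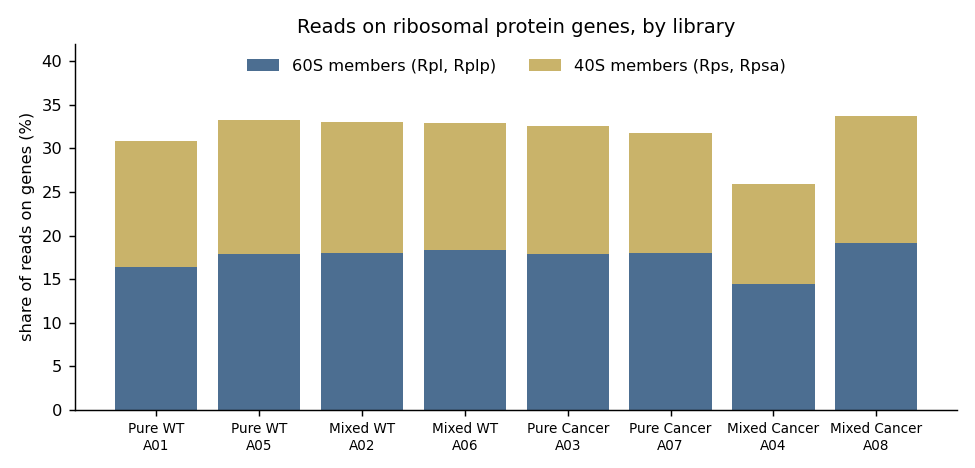
Share of reads on genes (%, vertical axis) that fell on ribosomal protein genes in each of the 8 libraries, with the 60S genes in blue and the 40S genes in yellow. The bars reach between 30.8% and 33.8% except in mixed cancer library A04, at 25.9%.

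The 60S genes together had more reads than the 40S genes in every library. Their ratio was 1.14 and 1.16 in pure WT (A01, A05), 1.19 and 1.25 in mixed WT (A02, A06), 1.23 and 1.31 in pure cancer (A03, A07), and 1.26 and 1.30 in mixed cancer cells (A04, A08). The mean was 1.18 ± 0.0480 (SD, n = 4) over WT and 1.27 ± 0.0381 over cancer libraries, and the ranges overlapped through A06 and A03.

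Rpsa, the 40S protein that is also known as a laminin receptor, had the most reads of the 83 genes, 255765 over the 8 libraries, and took 7.64% to 10.4% of the family's reads in a library. The stalk protein gene Rplp1 came next with 136620 reads, and Rps6 with 84201 and Rpl15 with 73317 were also among the 5 genes with the most. Per kilobase of curated transcript the order changed to Rplp1, Rpsa, Rpl41, Rps28 and Rps6, at 273788, 131974, 108174, 99056 and 95901 reads. Tags come from the 3′ end of an mRNA, so neither order is a measure of molecules, and the differences between genes of the family are not compared further.

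The counts of single genes ran from 3 to 255765 reads. Over the 8 libraries, 71 genes had more than 1000 reads, while 10 had fewer than 200. These were Rplp2 with 183 reads, Rpl34 with 137, Rpl37 with 93, Rps15a with 92, Rps27 with 22, Rpl30 with 20, Rps4y2 with 8, Rpl26 with 7, Rpl22l1 with 4 and Rpl39l with 3. Most of them encode core proteins that every ribosome contains, while Rpl22l1 and Rpl39l are paralogs of such proteins and Rps4y2, listed as Rps4l in GENCODE vM21, is annotated there as a transcribed processed pseudogene. Library by library, between 76 (A02) and 82 (A04) of the 83 genes had at least 1 read.

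Several of these rarely counted genes share their 3′ end with another transcript. The measure was the percent of windows of 50 bases in the last 500 bases of a gene's curated RefSeq transcripts that are shared. A window was shared if it also occurs, on either strand, in a transcript of another gene that does not overlap it (GENCODE vM21, GRCm38). That other gene had to have a curated RefSeq transcript or be among the counted genes, while the matching transcript itself need not be curated. All of the 83 genes but Rps4y2 had a curated transcript of their own. For Rps27, at chr3:90212522-90213651, 98.6% of windows also occur in Rps27rt. The value was 64.1% for Rpl26, 63.0% for Rpl22l1, 55.2% for Rpl30, 50.6% for Rpl34 and 39.0% for Rplp2, which shares its windows with Wdr89. In all, 6 of the 10 genes under 200 reads shared at least 30% of their windows, against 8 of the other 73. This contrast holds for the narrower measure only. With any annotated transcript of another gene counted, genes with many reads also shared most windows, such as Rpl10 (100%, 40671 reads) and Rps27a (92.7%, 35692 reads). Others, such as Rpl12 and Rpl15, shared 0%. By the narrower measure, Rps15a had 0% for its curated transcript and up to 46.8% over its own protein-coding transcripts.

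The relation had exceptions in both directions. Rps6 shared 90.7% of its windows with Rps6-ps4, yet it had 84201 reads. Rpl37 and Rpl39l had few reads and shared no window. The RefSeq release the authors aligned to is not given in the sources used here, so which transcripts competed for the reads was not tested. Counts in this family are of reads that mapped to a single place. Whether a low count came from discarded reads or from a low level was not tested.

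**Figure D2:**
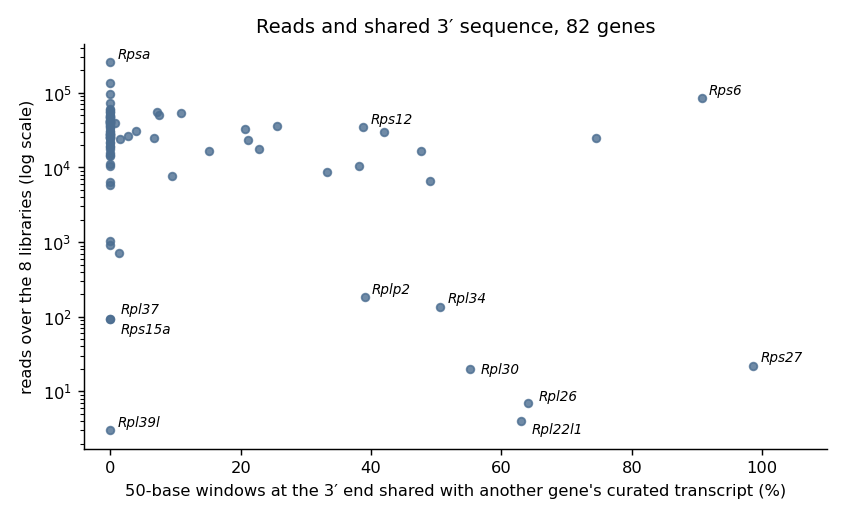
Percent of 50-base windows at the 3′ end that also occur in a transcript of another gene that is curated in RefSeq or counted (horizontal axis) against reads over the 8 libraries (vertical axis, log scale). There is 1 point per gene for the 82 genes with a curated transcript, and the matching transcript itself need not be curated. Rps27, Rpl26, Rpl22l1, Rpl30, Rpl34 and Rplp2 lie at the lower right with under 200 reads, while Rps6 shares most of its windows and has 84201 reads.

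The deposited barcode counts, which count different molecule barcodes per gene, do not follow these genes to their level. No gene exceeded 256 barcodes in a library, the number of different sequences of 4 bases. In A04, 65 of the 83 genes stood at exactly 256, as did 54 in A05, 28 in A01 and 12 in A06, while none did in A02, A03, A07 or A08. Rps12 had 256 barcodes in A01 with 6434 reads and 256 in A04 with 8933 reads. Reads per barcode over the family ran from 2.91 in A02 to 66.1 in A04, and over all other genes from 2.05 to 5.21.

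With barcodes in place of reads, the share of the family was 2.68% in A04 and 25.8% in A02, the deepest and the shallowest library. The comparisons below therefore rest on read counts, which include amplification copies.

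**Figure D3:**
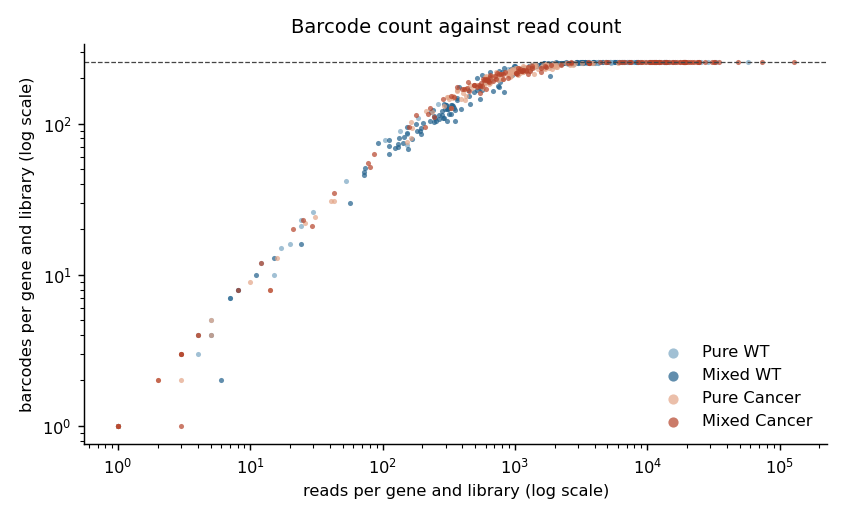
Barcode count (vertical axis, log scale) against read count (horizontal axis, log scale) of each ribosomal protein gene with reads in each library, coloured by group. The points rise together at low counts and then level off at the dashed line, 256 barcodes.

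The comparisons ask whether contact with the other cell type, or the cancer genotype, went with a change in these genes. Of the 83 genes, 74 passed the filter on low counts and were tested with all 5264 tested genes in 1 edgeR fit. Those not tested were Rpl22l1, Rpl26, Rpl30, Rpl34, Rpl37, Rpl39l, Rps15a, Rps27 and Rps4y2. A gene is called at an adjusted p under 0.05 (edgeR's quasi-likelihood test, Benjamini-Hochberg over all tested genes), and log2 fold changes carry their standard error (SE).

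In WT cells, mixing with cancer cells was not followed by a called change in any of the 74 genes, while 0.741% of all tested genes were called. The median log2 fold change of the 74 was 0.04, beside -0.10 over all tested genes. Above 0 were 42 of the 74 values and 2360 of all 5264. At an unadjusted p under 0.05 there were 2 genes, both higher in mixed WT cells, where 5% of all tested genes were higher. DESeq2 on the 8 libraries or on the 4 compared also called none of the family, and 2.01% and 0.819% of all genes with an adjusted p. The 95% intervals of 35 of the 74 genes lay within a 2-fold change in either direction, and 71 within 4-fold.

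Rpl36a, a 60S gene, had the highest value in mixed WT cells. It stood at 909 and 837 CPM in pure WT (A01, A05) and at 1874 and 1473 CPM in mixed WT cells (A02, A06), at a log2 fold change of 0.93 (SE 0.41, adjusted p = 0.44, edgeR). Rps14, at 4866 and 4640.4 CPM in pure and 8665 and 7630.3 CPM in mixed WT cells, had 0.78 (SE 0.37, adjusted p = 0.501, edgeR). These were the 2 genes with an unadjusted p under 0.05. Rpl31 (0.93), Rpl39 (0.71) and Rpl23a (0.61) completed the 5 largest increases, none of them called. At the other end stood Rpl7l1, a relative of Rpl7, at -0.85, and among the 5 lowest were also Rpl6 at -0.43, and Rplp0 and Rps13 at -0.40.

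In cancer cells, mixing with WT cells called none of the 74 genes and none of all 5264 (0%). The median of the family was -0.26, beside 0.03 over all tested genes, with 67 of 74 values below 0, against 2487 of all 5264. No gene of the family had an unadjusted p under 0.05, which 1.31% of all tested genes had. The shift rested on library A04, which was named above for its low share: without it, the family's median was -0.0046, beside -0.05 over all tested genes. Without A08, the other mixed cancer library, it was -0.46, beside 0.10.

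Within that shift the lowest value among genes averaging 50 reads or more was that of Rpl9, at -0.76 (SE 0.39), followed by Rpl23 at -0.66, Rpl36a at -0.66, Rpl21 at -0.59 and Rpl39 at -0.55. Above 0 were Rplp1 at 0.44 (SE 0.35), Rplp0 at 0.20, Rpl7l1 at 0.18, Rpl8 at 0.14 and Rps28 at 0.14. The stalk genes Rplp0 and Rplp1 were thus among the highest of the family here, and Rplp0 was among the lowest in mixed WT cells, at values that did not pass the test in either case.

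**Figure D4:**
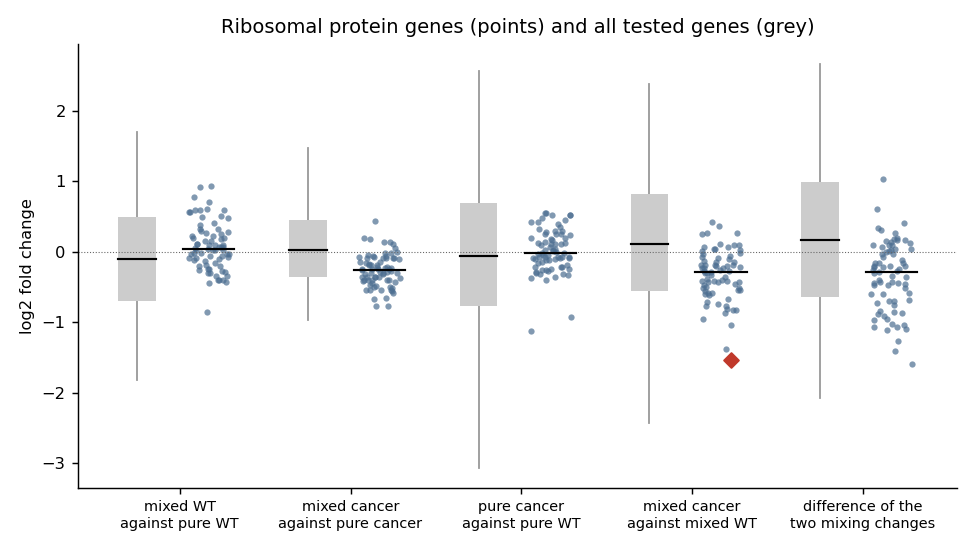
Log2 fold changes (vertical axis) of the 74 tested ribosomal protein genes (points) in 5 comparisons, beside all 5264 tested genes (grey, box from the 25th to the 75th percentile, line from the 5th to the 95th). Black lines are medians and the red diamond is Rps12, called in mixed cancer against mixed WT cells.

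Between pure cancer and pure WT cells, none of the 74 genes was called, while 9.95% of all tested genes were. The median was -0.01, beside -0.05 over all tested genes, with 36 values above and 38 below 0. A single gene, Rps12, was lower at an unadjusted p under 0.05, as were 10.3% of all tested genes. The values of the family spread less than those of all genes: from -0.18 to 0.23 between its 25th and 75th percentiles, against -0.77 to 0.69. The median SE was 0.38 in the family and 0.76 over all tested genes. The family is of abundant genes, and over all tested genes averaging at least 50 reads per library the same percentiles were -0.61 and 0.57. The median SE of those genes was 0.61.

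In mixed cells, cancer against WT, Rps12 was called as lower, 1 of 74 genes, where 4.41% of all tested genes were called as lower (6.42% in either direction). The median of the family was -0.29, beside 0.12 over all tested genes. Below 0 were 60 of 74 values, against 2367 of all 5264. At an unadjusted p under 0.05, 6 genes were lower, Rps12, Rps27l, Rpl36a, Rps7, Rps27a and Rps14, and none higher, where 8.47% of all tested genes were lower. Without A04 the family's median was -0.11, beside -0.08 over all tested genes, with 33 of 74 values above 0. It was -0.0098 without A06, beside 0.69, and -0.59 without A08, beside 0.13.

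Rps12 is a 40S protein near the beak of the small subunit, at chr10:23785183-23787275 on the minus strand. Its level was 5888 and 7455 CPM in pure WT (A01, A05) and 7078 and 7136 CPM in mixed WT cells (A02, A06). It was 3286 and 2834 CPM in pure cancer (A03, A07) and 1748 and 3195 CPM in mixed cancer cells (A04, A08). All 4 cancer libraries lay below all 4 WT libraries, with a gap from 3286 to 5888 CPM.

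As a share of the family's own reads, Rps12 had 1.89%, 2.09%, 2.23% and 1.86% in the WT libraries A01, A05, A02 and A06. In the cancer libraries A03, A07, A04 and A08 it had 0.916%, 0.893%, 0.728% and 0.907%. This share leaves out the low total of the family in A04, and the groups were again apart.

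The log2 fold change was -1.53 (SE 0.39, adjusted p = 0.0151, edgeR) in mixed cancer against mixed WT cells and -1.12 (SE 0.38, adjusted p = 0.0658) in pure cancer against pure WT cells. With all 4 cancer against all 4 WT libraries in the same fit, a contrast added after the values were seen, it was -1.33 (SE 0.27, 95% interval -1.89 to -0.76, adjusted p = 0.00104), where 7.37% of all tested genes were called as lower. The call in mixed cells was lost without A04, at -1.19 (adjusted p = 0.127), and without A06, at -1.46 (adjusted p = 0.0857), and the contrast of 4 against 4 stayed called with each library left out in turn, at adjusted p up to 0.00464. With transcript counts none was called, at -2.03 in mixed cells (adjusted p = 0.089), -0.35 in pure cells (0.82) and -1.19 over 4 against 4 libraries (0.11). With barcode counts the values were -1.46, 1.85 and 0.19 in this order (adjusted p = 0.695, 0.48 and 0.95). With mixing, Rps12 differed by 0.09 in WT and -0.31 in cancer cells, neither called.

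Of its 3′ windows, 38.8% also occur in an annotated transcript of Nphs1, which had 1 read in all libraries, and 97.1% occur in some other annotated transcript, Rps12-ps3 first. Among the leukocyte markers, Cd14 lay higher in all cancer than in all WT libraries, as did 8.24% of all tested genes. Cd14 and Cd68, the 2 of them that were tested, were called as higher over 4 against 4 libraries, as were 358 of all 5264 tested genes. The summed level of the 5 markers was 26.2 to 108 CPM in WT and 121 to 473 CPM in cancer libraries, with Ptprc, Cd3e and Cd79a not in the table. Only 2 of the 5 averaged at least 5 CPM over the libraries. Among the 11 epithelial markers, Krt8, Krt20, Cdx1, Cdx2 and Cldn7 were called as lower in all cancer against all WT libraries, while 1 of the 11 had a value above 0, not called. The part of either in the Rps12 result was not tested.

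Only 2 of the 74 genes had all 4 cancer libraries below all 4 WT libraries, Rps12 and Rpl24, and none had them above, where 8.11% of all tested genes lay wholly below and 8.24% wholly above. Rpl24, at the interface of the subunits, stood at 3212 to 3638 CPM in WT and at 1797 to 3059.8 CPM in cancer libraries. Its log2 fold change over 4 against 4 libraries was -0.37 (SE 0.26, adjusted p = 0.434, edgeR), and it overlaps Gm28037 in the annotation.

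Rps27l, the paralog of Rps27 and a known transcriptional target of p53, had the next lowest value in mixed cells. Its level was 921 and 731 CPM in pure WT (A01, A05), 1468 and 995 CPM in mixed WT (A02, A06), 876 and 455 CPM in pure cancer (A03, A07) and 519 and 415 CPM in mixed cancer cells (A04, A08). The mixed groups did not overlap, while the pure groups did, through A03 and A05. How many of all tested genes are apart with 2 libraries in each group was not counted, so this separation carries no weight of its own. The log2 fold change was -1.38 (SE 0.44, adjusted p = 0.0685, edgeR) in mixed cells, -0.32 (SE 0.43, adjusted p = 0.757) in pure cells and -0.85 (SE 0.31, adjusted p = 0.0726) over 4 against 4 libraries. DESeq2 on 8 libraries called it in mixed cells, at an adjusted p of 0.0247, where it called 4.31% of all tested genes as lower.

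**Figure D5:**
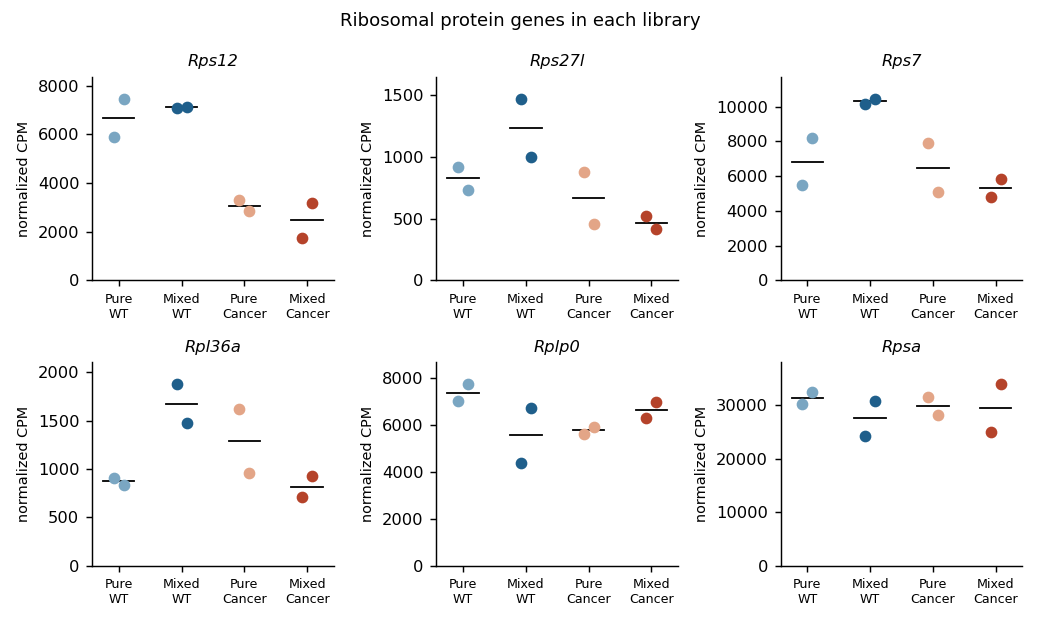
Level (normalized CPM, vertical axes from 0) of 6 ribosomal protein genes in the 2 libraries of each group, with points for libraries and black lines for group means. Rps12 lies between 1748 and 3286 CPM in all cancer libraries and between 5888 and 7455 CPM in all WT libraries, while Rpsa overlaps between the groups.

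Rps7, a 40S protein that also binds MDM2, stood at 10159 and 10446 CPM in mixed WT cells and at 4808 and 5862 CPM in mixed cancer cells (-0.95, SE 0.37, adjusted p = 0.163, edgeR). In pure cells its values overlapped, from 5477 to 8175 CPM in WT and from 5085 to 7888 CPM in cancer cells. Rpl36a, at 1874 and 1473 CPM in mixed WT and 706 and 929 CPM in mixed cancer cells, had -1.03 (SE 0.41, adjusted p = 0.176) and Rpl31 had -0.87. At the upper end were, among others, Rpl13 at 0.42, Rpl10 at 0.27, Rpl8 at 0.27 and Rplp0 at 0.25.

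In pure cells the lowest values after Rps12 were those of Rpl7l1 (-0.93), Rpl12 (-0.39), Rpl37a (-0.37) and Rplp0 (-0.35). The highest were Rpl36a (0.56), Rpl21 (0.55), Rps3a1 (0.53), Rpl31 (0.53) and Rpl39 (0.52). None was called. Mixed WT and pure cancer cells were both compared with the same pure WT libraries, against which Rpl36a had 0.93 and 0.56, Rpl31 had 0.93 and 0.53, and Rpl39 had 0.71 and 0.52.

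The difference between the mixing changes of cancer and WT cells was called for none of the 74 genes, where 0.076% of all tested genes were called. The median of the family was -0.28, beside 0.17 over all tested genes, and 3 genes had an unadjusted p under 0.05, Rpl36a, Rpl39 and Rps27a, each lower, as were 3.34% of all tested genes. Rpl36a had -1.59 (SE 0.58, adjusted p = 0.549, edgeR), from 0.93 in WT and -0.66 in cancer cells. Rpl39 had -1.26 (SE 0.53, adjusted p = 0.6), from 0.71 in WT and -0.55 in cancer cells. The median of the family was -0.032 without A04, beside -0.09 over all tested genes, and -0.033 without A06, beside 0.90. The 95% interval of no gene lay within a 2-fold change in either direction, so the data bound these differences only loosely.

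Most of the paralog pairs were counted unevenly. Rps27l had 5910 reads and Rps27, which shares its 3′ end with Rps27rt, 22. Rpl22 had 11183 reads, at 989 to 2189 CPM, and its paralog Rpl22l1 had 4. Rpl39 had 50896 reads and Rpl39l, known from testis, 3. Rpl7 had 49404 reads and Rpl7l1 710, and Rpl36a and Rpl36al had 7689 and 6479. Rps4x had 40176 reads, at 3251 to 6264 CPM, and Rpl3, Rpl10 and Rpl26 had 19045, 40671 and 7. For Rpl22l1, Rpl26 and Rps27 these counts carry the limit on shared sequence given above. Of the genes named here, Rpl5, Rpl22l1, Rpl23a, Rpl24, Rpl30, Rpl31, Rpl36al and Rps28 share 3′ sequence, on either strand, with an annotated gene that overlaps them, and whether the counting used strand is not given in the sources used here.

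Rpl36a and Rpl36al, which encode closely related proteins on chromosomes X and 12, were both counted well. Rpl36al stood at 553 and 1067 CPM in pure WT, 747 and 1339 CPM in mixed WT, 855 and 976 CPM in pure cancer and 515 and 1084 CPM in mixed cancer cells. In each WT group the libraries differed more from each other than the group means did, unlike those of Rpl36a.

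The genes with known further roles were not called in any of the 5 comparisons. Rpsa lay between 24211 and 33847 CPM, and Rps6 between 10501 and 14412 CPM except in A04, at 6354. Rpl5 stood between 3854 and 9006 CPM and Rpl11 between 2966 and 4365 CPM, and together with 5S rRNA their proteins form the particle that binds MDM2. Rpl5 was low in A01 (3876), A02 (4640.3) and A04 (3854) and at 7348 to 9006 in the other 5 libraries, so the libraries of 3 groups disagreed. Rps27a stood at 3905 and 4683 CPM in pure WT, 5938 and 7021 in mixed WT, 6429 and 4121 in pure cancer and 3155 and 4228 in mixed cancer cells, with -0.81 (SE 0.38, adjusted p = 0.269, edgeR) in mixed cancer against mixed WT cells.

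The stalk genes were counted very unequally. Rplp0 lay between 4404 and 7746 CPM and Rplp1 between 11676 and 18887 CPM. Rplp2, whose protein pairs with that of Rplp1 on the ribosome, had 13.1 to 29.9 CPM. It shared 39.0% of the windows of its curated transcript, and up to 65.1% over its own protein-coding transcripts, with other genes.

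Other genes of the translation machinery were described in the same way, and their counts stand beside the shares of all tested genes called in the 5 comparisons, which ran from 0% to 9.95%. Of the ribosomal proteins outside the naming rule, Fau and Gnb2l1 (Rack1) were tested and neither was called. Of 8 elongation factors and 29 tested initiation factors none was called in any comparison, with medians of -0.01 and -0.02 in mixed cancer against mixed WT cells and of -0.24 and -0.16 in mixed against pure cancer cells. Of 18 tested other genes known for a TOP start, which overlap those lists, none was called, and their median was -0.06 in mixed cancer against mixed WT cells and -0.25 in mixed against pure cancer cells. Of 75 tested mitochondrial ribosomal protein genes none was called, with medians of -0.34 in mixed WT against pure WT, -0.14 in mixed against pure cancer, -0.28 in pure cancer against pure WT and -0.21 in mixed cancer against mixed WT cells. The family's own medians in these comparisons were 0.04, -0.26, -0.01 and -0.29.

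Among 15 genes that control TOP mRNAs or phosphorylate S6, 4 had enough reads to be tested, Larp1, Eif4ebp1, Rps6ka1 and Rps6ka4, and Eif4ebp1 was called. It encodes 4E-BP1, the translation repressor that mTORC1 phosphorylates. Its level was 342 and 159.6 CPM in pure WT (A01, A05), 197 and 265 CPM in mixed WT (A02, A06), 1055 and 799 CPM in pure cancer (A03, A07) and 882 and 825 CPM in mixed cancer cells (A04, A08). All cancer libraries lay above all WT libraries, at a log2 fold change of 1.89 (SE 0.46, adjusted p = 0.00817, edgeR) in pure and 1.85 (SE 0.48, adjusted p = 0.0163) in mixed cells. Of all tested genes, 8.24% lay wholly above in the same way. In cancer against WT cells, 269 of all 5264 tested genes were called as higher in pure cells and 106 in mixed cells. With mixing it differed by -0.08 in WT and -0.12 in cancer cells, neither called.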

How the data were processed

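Sorted pure and mixed WT and cancer cells were profiled by CEL-Seq, 2 libraries in each of 4 groups. The authors aligned read 2 to the mm10 RefSeq transcriptome with BWA, dropped multi-mapping reads, and deposited read counts per gene from featureCounts, without normalization. The authors also deposited barcode counts and, made from them by correcting for repeated barcodes, estimated counts of transcripts, which were rounded. Both served as alternatives. A deposited DESeq2 (1.22.2) table of mixed against pure WT cells, with the authors' mean signal, log2 fold change, SE, score, p-value and adjusted p, was not used.

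The 3 count tables hold 13420 genes, after 2 entries that are not mouse genes were left out. Depth ranged from 73109 to 4733121 reads. Read counts were fitted with edgeR 4.0.16 in R 4.3.3 (filterByExpr, minimum count 10, TMM, quasi-likelihood, all 8 libraries), with Benjamini-Hochberg adjustment over 5264 genes. The script was tested on simulated data. Members, lists and tests were chosen with earlier results of these data known.

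Genes named in the text are those called, the 5 largest changes per direction with a mean of at least 50 reads, paralog pairs, genes with known roles (the stalk, Rpsa, Rps6, Rps27a, Rpl5, Rpl11), the 5 with most reads and called genes of other lists. Rpl24 was named after its values were seen. Some genes and alleles that this rule or the design would name are not reported here. Normalized CPM are counts per 1000000 reads of the TMM-scaled library size. Alternatives were the other count tables, other scalings (median of ratios, upper quartile, TMM without the family), no filter or a minimum of 50, only the 4 libraries compared, DESeq2 1.42.0, and each library left out. The contrast of all cancer against all WT libraries, curated transcripts for shared windows, longer tracts or those at the start itself, and a block for the quartet of wells (A01 to A04 and A05 to A08) were added after seeing the data.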

Additional observations from a re-analysis of the deposited data

How the results depend on the processing

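The groups share no replicate numbers, and no source says that the wells A01 to A04 or A05 to A08, each with 1 library of every group, were handled together. Deviations from the group means correlated at 0.0443 to 0.211 across 5264 genes between libraries of the same quartet. With the quartet as a replicate block, added after seeing the data, 1 gene, Rps12, was called in pure cancer against pure WT cells (-1.10, adjusted p = 0.0238, edgeR) and 2, Rps12 and Rps27l, in mixed cancer against mixed WT cells (adjusted p = 0.00101 and 0.0102). For mixing, whether in WT cells, in cancer cells or as the difference between them, none of the 74 genes was called under any alternative run. In pure cancer against pure WT cells, 1 gene, Rps12, was called without the family in the TMM factors, with no filter, with a minimum count of 50 and with only the 4 libraries compared, and 0 to 1 with a library left out (1 without A02, A04 or A08). In mixed cancer against mixed WT cells, 0 were called with barcode counts and 0 with transcript counts. There, 2 were called, Rps12 and Rps27l, with median-of-ratios factors, without the family in the TMM factors, with a minimum count of 50 and by DESeq2 on 8 or on 4 libraries, and 0 to 2 with a library left out. Rps12 over 4 against 4 libraries was 0.19 with barcode counts, which stood at 256 in 4 of the 8 libraries.

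With barcode counts the family's median log2 fold change was 2.16 in mixed against pure WT, -0.66 in mixed against pure cancer, 1.87 in pure cancer against pure WT and -0.999 in mixed cancer against mixed WT cells, and -2.82 for the difference. With transcript counts it was 0.47, -0.50, 0.26, -0.66 and -0.95 in this order. The difference was -0.068 with no filter. Over libraries left out the median ran from -0.23 to 0.21, from -0.46 to -0.0046, from -0.17 to 0.18, from -0.59 to -0.0098 and from -0.54 to -0.032, in the same order. In pure cancer against pure WT cells its sign changed between scalings, and in mixed against pure WT cells it was -0.13 with no filter.

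The share of the family was 5.66%, 18.5%, 15.9% and 10.3% by barcodes, for WT cells pure and mixed and then cancer cells pure and mixed, and 25.1%, 31.7%, 28.2% and 21.6% by transcript counts. Over tested genes it was 33.9% in mixed WT and 33.1% in pure cancer cells, and without paralogs 32.8% in mixed WT cells. The ratio of 60S to 40S was 1.42, 1.35, 1.40 and 1.41 by barcodes, and 1.26, 1.40 and 1.35 by transcript counts in pure WT and both cancer groups. With 1 library of a group left out, shares ran from 30.8% to 33.3%, 32.9% to 33.1%, 31.8% to 32.5% and 25.9% to 33.8%, and ratios from 1.14 to 1.16, 1.19 to 1.25, 1.23 to 1.31 and 1.26 to 1.30. Of 4054 values of named genes under alternatives, 3671 kept their call and, where there was none, moved by less than 1 SE.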
